A study of Mus musculus with 12 samples.

Results

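MHC class II genes were followed in the hippocampus of mice with and without *Dek*. The 6 genes are *H2-Aa*, *H2-Ab1*, *H2-Eb1*, *Cd74*, *H2-DMa* and *Ciita*, chosen by name, and all 6 were found by Ensembl ID among the 26409 genes listed in the expression table. RNA sequencing of hippocampal tissue gave 12 libraries, 3 in each of 4 groups: female WT, male WT, female *Dek* cKO and male *Dek* cKO. *Dek* cKO mice came from a *Dek* allele with exons 3 and 4 floxed, crossed to CMV-Cre on a C57Bl/6 background. The line used has no Cre and carries the deletion from the fertilised egg onward. WT mice were the controls, and mice of both genotypes were 6 to 12 months old. Because the allele is lost in the germline, it is missing from every cell type of the body, immune cells included, and from every stage of development. Values are TPM, a unit in which reads are corrected for the length of the transcript and scaled within a library, so levels can be set side by side between genes. Library names start with C57 in the 3 female WT mice and with CMV in the other 9. In WT mice the sexes, and in females the genotypes, therefore cannot be told apart from the name prefixes. Any difference between the genotype effects of females and males shares this limit. With both sexes together, names starting with C57 occur in WT mice alone, so genotype is partly tied to the prefix there too.

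MHC class II molecules carry peptides from proteins taken up by a cell to its surface, where CD4 T cells read them. An alpha and a beta chain are assembled in the endoplasmic reticulum around the invariant chain, which guides them to endosomes, where its last fragment is exchanged for a peptide with the help of the editor H2-DM. In healthy brain tissue the molecules are found mainly on macrophages and dendritic cells of the meninges, choroid plexus and perivascular spaces, while resting microglia carry little, and transcription depends on the transactivator CIITA, which interferon gamma induces.

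*Dek* separated the genotypes in each library. In female WT mice it had 49.5, 44.2 and 47 TPM, in male WT mice 51.9, 48.7 and 48.8 TPM, in female *Dek* cKO mice 6.52, 9.25 and 6.52 TPM, and in male *Dek* cKO mice 7.47, 8.1 and 5.55 TPM. All *Dek* cKO values lay below all WT values, and a gene total in TPM does not show which exons remained. Sex labels did not hold in 2 libraries. Transcripts of the Y chromosome, *Eif2s3y* (72.7 TPM) and *Ddx3y* (20.4 TPM), were abundant in the library labelled female cKO replicate 3. In the library labelled male cKO replicate 1, *Eif2s3y* reached only 0.111 TPM and *Ddx3y* is listed at 0. Both were kept under their labels, and alternatives left both out. The library of male cKO replicate 3 stood apart in glial genes, with 1267 TPM of the astrocyte filament gene *Gfap* against 208 to 437 TPM in the other 11 libraries and 8.21 TPM of the microglial receptor gene *P2ry12* against 16.5 to 29.2 TPM. Genes of hippocampal neurons were present throughout. The 10 marker genes summed to between 1316 and 1708 TPM in a library, none of them was listed at 0, and *Slc17a7*, the vesicular glutamate transporter of excitatory neurons, was the most abundant.

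Class II transcripts were at low levels. On chromosome 17 of GRCm38 lie *H2-DMa* (34119541 to 34139101), *H2-Ab1* (34257689 to 34269419), *H2-Aa* (34282744 to 34287823) and *H2-Eb1* (34305867 to 34316674), while *Cd74* lies on chromosome 18 (60803848 to 60812652) and *Ciita* on chromosome 16 (10480059 to 10528418). Over the 12 libraries *Cd74* averaged 5.9 ± 3.19 TPM (SD, n = 12), *H2-DMa* 5.45 ± 1.13 TPM, *H2-Aa* 3.4 ± 1.89 TPM and *H2-Ab1* 2.62 ± 1.43 TPM. *Ciita* averaged 0.417 ± 0.1 TPM and *H2-Eb1* 0.121 ± 0.225 TPM. The mean of *Cd74* was above that of 42.5% of the 18197 genes tested and the mean of *H2-Eb1* above that of 1.75%. Neighbours in this order were often close. *Cd74* exceeded *H2-DMa* in 7 of 12 libraries, with a mean difference of 0.447 ± 3.42 TPM (SD of the difference), so neither gene was consistently the higher. *H2-DMa* exceeded *H2-Aa* in 10 of 12 libraries, by 2.05 ± 2.26 TPM, and *H2-Aa* exceeded *H2-Ab1* in 11 of 12, by 0.78 ± 1.36 TPM. These orders held in most libraries but were not tested, and the SD describes single libraries, not the mean difference. *H2-Ab1* stood above *Ciita* in 12 of 12 libraries, by 2.21 ± 1.41 TPM. *Ciita* stood above *H2-Eb1* in 11 of 12, by 0.296 ± 0.209 TPM.

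The comparison of genotypes asked whether these genes differ in the absence of *Dek*. Values were tested as log2(TPM + 0.1) with limma across the 18197 genes whose mean reached 0.1 TPM, Benjamini-Hochberg adjustment covered all of these genes, and calls required an adjusted value under 0.05 together with a change of more than 1.2 times. With both sexes together, 0 of the 6 class II genes were called by limma, against 0.148% of all genes tested, and 0 had an unadjusted p under 0.05, against 6.64%. The first share stands for 27 genes, and moved to 15 genes without female cKO replicate 1, 13 without female cKO replicate 2, 17 without male cKO replicate 1, 16 without both libraries of conflicting sex, 17 without the filter, 8 in CMV-named libraries only and 3 with a replicate block. The 6 *Dek* cKO libraries were all above or all below the 6 WT libraries for 0 of the 6 genes, against 0.676% of all genes. All 6 had a positive log2 fold change, with a median of 0.40, while 55.8% of all genes tested were positive with a median of 0.016. *H2-Eb1* averaged 0.0837 TPM in WT and 0.159 TPM in *Dek* cKO mice, so it passed the filter only through the *Dek* cKO group. Its sign is no support for a shared direction. With the filter raised to 1 TPM, which drops *H2-Eb1* and *Ciita*, the median was 0.41. Without both libraries of conflicting sex, the number called stayed at 0 and the median of the 6 genes was 0.29. Leaving out 1 library at a time brought it as low as 0.22 (male cKO replicate 1 left out) and 0.25 (male cKO replicate 3). In bulk tissue, fewer or more cells of a type and less or more RNA per cell cannot be told apart.

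**Figure D1:**
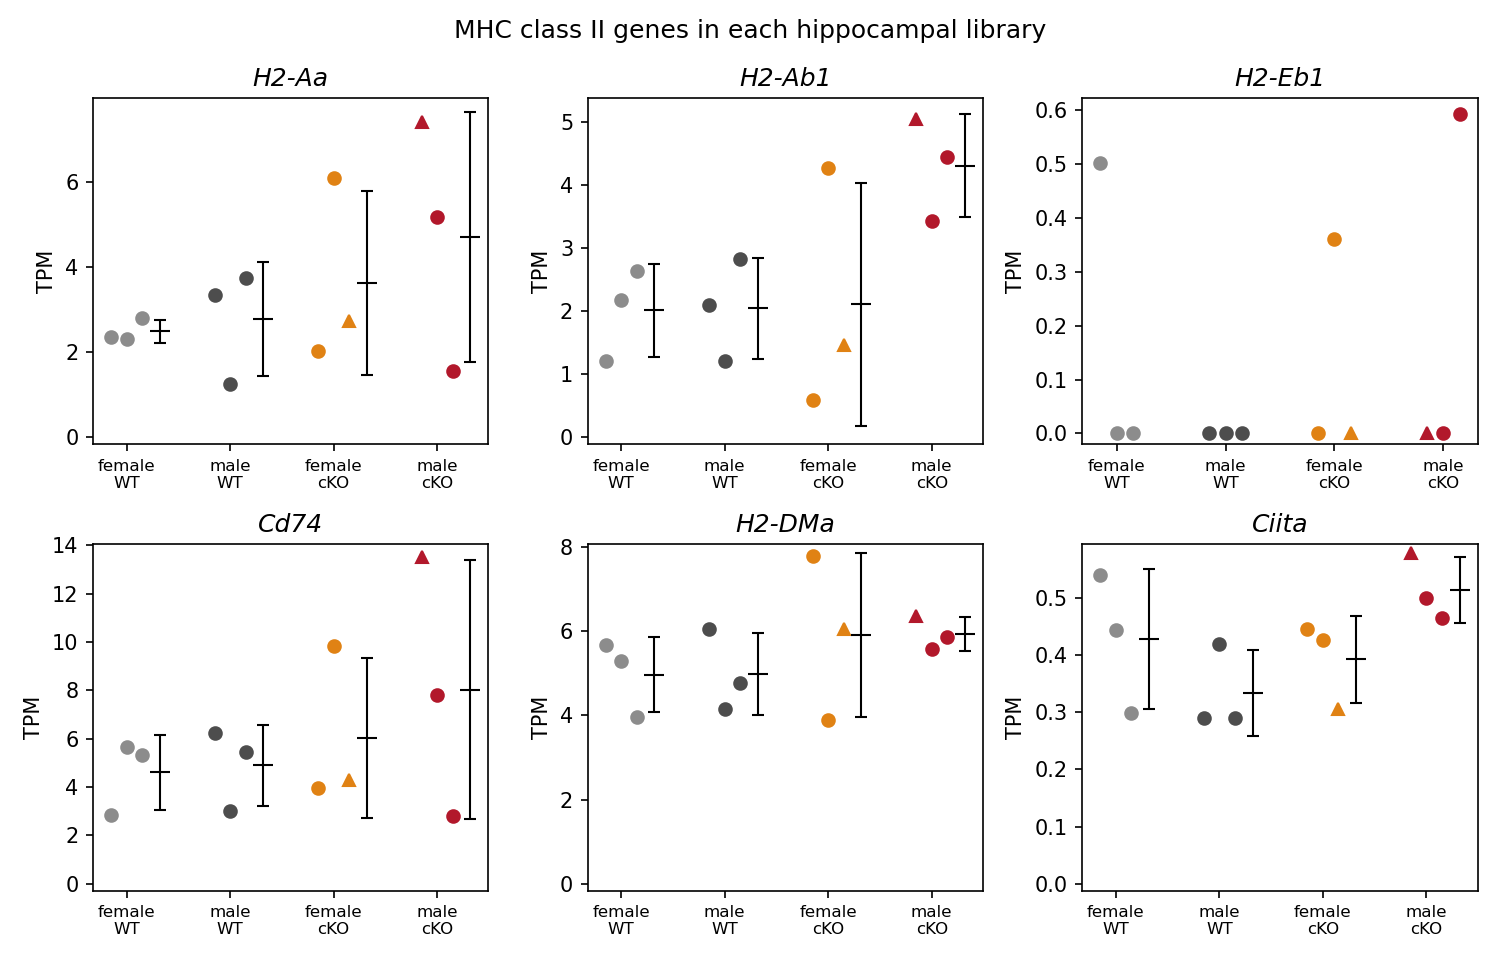
TPM of each class II gene (vertical axes, different scales) in the 3 libraries of each group. Points are libraries, triangles are the 2 libraries whose Y-linked genes go against their labels, and black bars are the group mean and SD, not drawn for *H2-Eb1*, which is listed at 0 in 9 of 12 libraries. For each gene the WT and *Dek* cKO libraries overlap.

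*H2-Aa* encodes the alpha chain of the class II molecule I-A. In WT libraries it ranged from 1.25 TPM to 3.75 TPM with a median of 2.58 TPM, and in *Dek* cKO libraries from 1.57 TPM to 7.4 TPM with a median of 3.96 TPM. Male cKO replicate 1 (7.4 TPM), female cKO replicate 2 (6.1 TPM) and male cKO replicate 2 (5.17 TPM) stood above every WT library, while the other 3 *Dek* cKO libraries, at 2.04, 2.74 and 1.57 TPM, lay inside the WT range. The log2 fold change was 0.50, with a 95% interval from -0.31 to 1.31 (limma, Benjamini-Hochberg adjusted p = 0.887). The interval holds 0 and values on either side of it, so the test does not show that the genotypes were alike. For *H2-Aa* this fold change was 0.34 without both libraries of conflicting sex, 0.30 without male cKO replicate 1 and 0.73 when male cKO replicate 3 was left out.

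*H2-Ab1*, the beta chain that pairs with *H2-Aa*, had 1.21 TPM to 2.83 TPM in WT libraries (median 2.14 TPM) and 0.59 TPM to 5.06 TPM in *Dek* cKO libraries (median 3.85 TPM). The lowest and the highest of the 12 values thus both fell in *Dek* cKO mice, in female replicate 1 and male replicate 1. In 4 of the 6 *Dek* cKO libraries *H2-Ab1* stood above every WT library, at 4.28 TPM in female replicate 2 and 5.06, 3.43 and 4.46 TPM in the males. The log2 fold change was 0.42, with a 95% interval from -0.56 to 1.39 (limma, Benjamini-Hochberg adjusted p = 0.935), and 0.38 without both libraries of conflicting sex. Without female cKO replicate 1 it was 0.81 (limma, Benjamini-Hochberg adjusted p = 0.719), and over all 23 alternatives the adjusted p lay between 0.719 and 0.996. Without male cKO replicate 1 it was 0.23. The partners did not keep a fixed ratio. The TPM of *H2-Aa* was 1.02 to 1.95 times that of *H2-Ab1* in WT libraries, 3.46 times in female cKO replicate 1 and 0.352 times in male cKO replicate 3.

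*H2-Eb1* encodes the beta chain of the second class II molecule, I-E, whose alpha chain gene is defective in the C57BL/6 strain. It had 0.502 TPM in female WT replicate 1, 0.361 TPM in female cKO replicate 2 and 0.593 TPM in male cKO replicate 3. It is listed at 0 in the other 9 libraries, all 3 male WT libraries among them, and no fold change is given within a sex. With both sexes together its fitted log2 fold change was 0.40 (limma, Benjamini-Hochberg adjusted p = 0.963), and it was 0.82 without both libraries of conflicting sex, 0.01 without male cKO replicate 3, 0.13 without female cKO replicate 2 and 0.83 without female WT replicate 1. With 0.5 TPM added in place of 0.1 it was 0.15, and with 1 TPM added 0.09. The alpha chain locus, annotated as *H2-Ea-ps*, is listed at 0 in all 12 libraries.

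*Cd74*, the invariant chain, had 2.84 TPM to 6.22 TPM in WT libraries (median 5.39 TPM) and 2.79 TPM to 13.5 TPM in *Dek* cKO libraries (median 6.04 TPM). Male cKO replicate 1 (13.5 TPM), female cKO replicate 2 (9.85 TPM) and male cKO replicate 2 (7.79 TPM) were the 3 highest libraries, as for *H2-Aa*, and the other 3 *Dek* cKO libraries lay at 3.96, 4.28 and 2.79 TPM, below the WT median. *Cd74* and *H2-Aa* varied together over the 12 libraries, with a Pearson r of 0.93 and a Spearman rho of 0.87 between log2 values, and r was 0.85 without the 2 libraries farthest from the median of *H2-Aa*. *H2-Ab1* followed less closely, with r of 0.60 to *H2-Aa* and 0.60 to *Cd74*. Without the 2 libraries farthest from the median of *H2-Aa* the first was 0.36, and without those farthest from the median of *H2-Ab1* the second was 0.52. The TPM of *Cd74* was 1.21 to 2.45 times that of *H2-Aa* in the 12 libraries. The log2 fold change of *Cd74* was 0.41, with a 95% interval from -0.36 to 1.18 (limma, Benjamini-Hochberg adjusted p = 0.917). It was 0.24 without both libraries of conflicting sex, 0.18 without male cKO replicate 1 and 0.63 when male cKO replicate 3 was left out.

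*H2-DMa*, the alpha chain of the peptide editor H2-DM, had 3.96 TPM to 6.04 TPM in WT libraries (median 5.03 TPM) and 3.89 TPM to 7.79 TPM in *Dek* cKO libraries (median 5.96 TPM). Its order of libraries differed from that of the chains. Female cKO replicate 1, the lowest library for *H2-Ab1*, was the highest for *H2-DMa*, and female cKO replicate 2, among the 3 highest for *H2-Aa* and *Cd74*, was the lowest. Pearson r over the 12 libraries was -0.03 between *H2-DMa* and *H2-Aa* and -0.08 between *H2-DMa* and *Cd74*. The log2 fold change of *H2-DMa* was 0.24, with a 95% interval from -0.10 to 0.57 (limma, Benjamini-Hochberg adjusted p = 0.864). It was 0.19 without both libraries of conflicting sex and ranged from 0.15 (without female cKO replicate 1) to 0.35 (without female cKO replicate 2) as single libraries were left out.

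Of the 6 other class II molecules examined, 4 had enough signal to be tested and 0 were called by limma, against 0.148% of all genes, while 2 had an unadjusted p under 0.05, against 6.64%. These were *H2-DMb1* and *H2-DMb2*, which encode beta chains that pair with *H2-DMa*; *H2-DMb2* was named after its values were seen. *H2-DMb1*, the most abundant of the group, had 1.2 TPM to 2.35 TPM in WT libraries (median 1.87 TPM) and 2.15 TPM to 3.99 TPM in *Dek* cKO libraries (median 2.66 TPM). Only female cKO replicate 1, at 2.15 TPM, lay below the highest WT library, male WT replicate 1, so the genotypes overlapped by these libraries alone. Its log2 fold change was 0.62, with a 95% interval from 0.22 to 1.02 (limma, Benjamini-Hochberg adjusted p = 0.447), and 0.53 without both libraries of conflicting sex. Over 23 alternatives it stayed between 0.44 and 0.70 and was called in 0. *H2-DMb2* had 0 TPM to 0.781 TPM in WT and 0.322 TPM to 0.873 TPM in *Dek* cKO libraries, with a log2 fold change of 1.21 that 1 added TPM in place of 0.1 brought to 0.32. The subunits of H2-DO, which restrains H2-DM in B cells, had log2 fold changes of 0.00 (*H2-Oa*) and 0.15 (*H2-Ob*). By label *H2-Oa* had 0.52 in females and -0.52 in males, and *H2-Ob* 0.65 and -0.34, none of them called by limma.

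*Ciita*, the transactivator that class II promoters need, had 0.29 TPM to 0.541 TPM in WT libraries (median 0.359 TPM) and 0.305 TPM to 0.578 TPM in *Dek* cKO libraries (median 0.455 TPM). The ranges overlapped over most of their length. Its log2 fold change was 0.21, with a 95% interval from -0.26 to 0.69 (limma, Benjamini-Hochberg adjusted p = 0.929), 0.24 without both libraries of conflicting sex, and 0.08 with 1 TPM added in place of 0.1. In CMV-named libraries only it was 0.35, the highest of its 22 alternatives. *Ciita* did not follow *H2-Aa*, *H2-Ab1* or *Cd74* from library to library, with a Pearson r of 0.12, 0.12 and 0.10. To *H2-DMa* r was 0.29, and to *H2-Eb1* it was 0.39. At these levels a gene's value may rest on few reads, and TPM does not keep the number of reads behind it.

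The comparison within each sex used a fit of 4 groups. By limma 0 of the 6 genes were called in females, against 0.0165% of all genes tested, and 0 in males, against 0.0165%, with 0 at an unadjusted p under 0.05 in either sex, against 5.79% of all genes in females and 5.45% in males. Each share stands for 3 genes. In females it moved to 1 gene without cKO replicate 1 or 2 and to 5 without cKO replicate 3, in males to 7 without WT replicate 3, and without both libraries of conflicting sex to 9 and 7. In males the *H2-Ab1* values of *Dek* cKO mice (5.06, 3.43 and 4.46 TPM) all lay above those of WT mice (2.1, 1.22 and 2.83 TPM). The *Ciita* values of male *Dek* cKO mice (0.578, 0.5 and 0.465 TPM) likewise lay above those of male WT mice (0.29, 0.42 and 0.29 TPM). By label the genotypes were thus separated in males for 2 of the 6 genes, against 9.75% of all genes tested, and in females for 0 of 6, against 12%. With the 2 libraries of conflicting sex placed by their Y-linked genes, a split chosen after seeing the data, they were separated for 0 of 6 in males, against 11.1%, and for 0 of 6 in females, against 13.1%. *H2-DMb1*, not counted here, was separated in each sex under either placing.

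In males the log2 fold change of *H2-Ab1* was 1.09, with a 95% interval from -0.14 to 2.33 (limma, Benjamini-Hochberg adjusted p = 0.88), and 0.97 without both libraries of conflicting sex. In females it was -0.26, with a 95% interval from -1.50 to 0.97 (limma, Benjamini-Hochberg adjusted p = 0.989), and 0.38 without female cKO replicate 1. The log2 fold change of *Ciita* was 0.51 in males and -0.09 in females, and the latter was 0.05 without both libraries of conflicting sex. *H2-Aa* had 0.38 in females and 0.63 in males, *Cd74* 0.31 and 0.50, and *H2-DMa* 0.21 and 0.26. Without both libraries of conflicting sex these were 0.50 and 0.18, 0.49 and -0.00, and 0.16 and 0.21. Single libraries set several of these values. Without female cKO replicate 2 those of *H2-Aa* and *Cd74* in females were -0.06 and -0.10, and without male cKO replicate 1 that of *Cd74* in males was -0.00. In males *H2-Aa* had 0.15 without male WT replicate 2 and 1.26 without male cKO replicate 3.

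**Figure D2:**
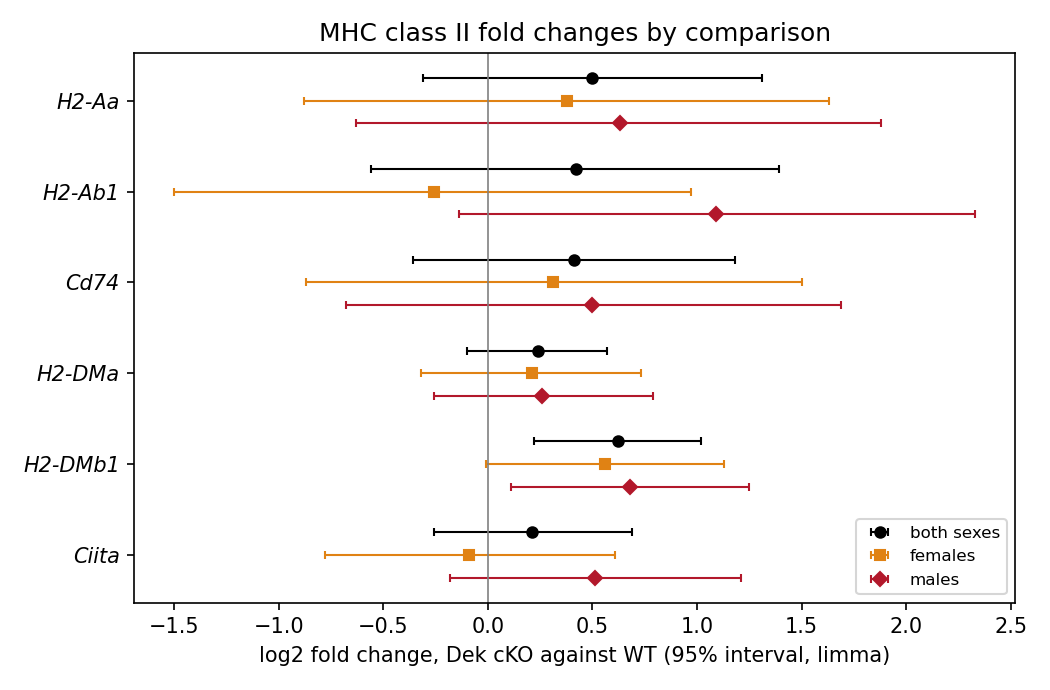
Log2 fold change of *Dek* cKO against WT mice (horizontal axis) for 5 class II genes and *H2-DMb1*, from limma, with both sexes together (circles), in females (squares) and in males (diamonds). Bars are 95% intervals. The intervals of the 5 genes include 0 in each comparison, and those of *H2-DMb1* lie above 0 with both sexes together and in males.

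Whether genotype acted differently in females and males was tested as an interaction, the female effect minus the male effect. Of the 6 genes, 0 were called by limma, against 0% of all genes tested, with 0 at an unadjusted p under 0.05, against 4.23%. *H2-Ab1* had the interaction farthest from 0, at -1.36 with a 95% interval from -3.10 to 0.39 (limma, Benjamini-Hochberg adjusted p = 0.966), and -1.19 without both libraries of conflicting sex. Over 21 alternatives it lay between -2.05 (without female cKO replicate 2) and -0.72 (without female cKO replicate 1). Between male and female WT mice 0 of 6 were also called by limma, against 0% of all genes tested, with 0 at an unadjusted p under 0.05, against 3.63%. The log2 differences of male minus female WT mice were 0.02 for *H2-Aa*, 0.02 for *H2-Ab1*, 0.08 for *Cd74*, 0.00 for *H2-DMa* and -0.27 for *Ciita*, and none is given for *H2-Eb1*, listed at 0 in all 3 male WT libraries.

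Class II promoters carry conserved X and Y boxes, bound by the RFX complex and by NF-Y, on which CIITA assembles. All 8 genes of promoter factors, with *Creb1* and *Zxdc* beside the RFX and NF-Y subunits, were listed and tested, and 0 were called by limma, against 0.148% of all genes, with 0 at an unadjusted p under 0.05, against 6.64%, and a median log2 fold change of 0.06 with both sexes together. *Nfyc* and *Nfyb*, subunits of NF-Y, and *Rfx5*, the DNA-binding subunit of the RFX complex, were the most abundant. *Nfyc* had 52.3 TPM to 58.8 TPM in WT and 54 TPM to 65.3 TPM in *Dek* cKO libraries, and *Nfyb* 44.5 TPM to 58 TPM and 47.9 TPM to 72.5 TPM.

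*Rfx5* was not called in either sex. In the libraries labelled female it had 21.5, 23.5 and 21.4 TPM in WT and 26.2, 26.6 and 28.2 TPM in *Dek* cKO mice. In those labelled male it had 24.7, 26.8 and 26.8 TPM in WT and 23.3, 21.8 and 18.8 TPM in *Dek* cKO mice. By label the genotypes did not overlap in either sex, as for 12% of all genes in females and 9.75% in males. With the 2 libraries of conflicting sex, at 28.2 and 23.3 TPM, placed by their Y-linked genes, the genotypes overlapped in both. The log2 fold change was 0.28 in females and -0.30 in males, and the interaction was 0.58, with a 95% interval from 0.32 to 0.85 (limma, Benjamini-Hochberg adjusted p = 0.966). Without both libraries of conflicting sex the interaction was 0.62 (limma, Benjamini-Hochberg adjusted p = 0.193), and over all 21 alternatives it lay between 0.49 and 0.65 and was called in 0.

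Of the 6 genes, those for chains of I-A or I-E that differed most in level were *H2-Aa* and *H2-Eb1*, and their promoter sequences are shown. They lie near each other on chromosome 17 (GRCm38). RefSeq windows for GRCm38.p6 were found for 3 of the 6 genes, *H2-Aa*, *H2-Eb1* and *H2-DMa*. Each run holds the 140 bases before the RefSeq start site, 5′ to 3′ on the strand of the gene, and overlaps no exon of GENCODE M21. Capitals mark the letters GATTGG of the Y box and AACNGATG of the X box, searched on both strands. The *H2-Aa* run is chr17:34287824-34287963 on the minus strand, and the *H2-Eb1* run is chr17:34305727-34305866 on the plus strand.
H2-Aa: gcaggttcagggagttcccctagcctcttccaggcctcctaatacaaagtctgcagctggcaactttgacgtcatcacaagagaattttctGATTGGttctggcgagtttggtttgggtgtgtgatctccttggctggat
H2-Eb1: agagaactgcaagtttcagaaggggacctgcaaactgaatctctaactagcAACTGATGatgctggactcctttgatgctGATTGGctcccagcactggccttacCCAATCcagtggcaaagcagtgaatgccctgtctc
The Y box letters begin 49 bases before the start in *H2-Aa* and 60 bases before it in *H2-Eb1*, which has them again on the other strand 35 bases before the start. Of these runs, that of *H2-Eb1* alone holds the X box letters, 89 bases before the start. Of all 32851 RefSeq windows, 14.6% hold the Y box letters and 1.98% the X box letters in their 250 bases before the start. A match describes these letters alone.

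Of the 12 genes of endosomal antigen processing, which include the cathepsins that cut antigen and invariant chain, 11 were tested and *Ifi30* was not analysed here. By limma 0 were called, against 0.148% of all genes, with 0 at an unadjusted p under 0.05, against 6.64%, and the median log2 fold change was 0.08. The most abundant were *Ctsd*, at 248 TPM to 285 TPM in WT and 239 TPM to 305 TPM in *Dek* cKO libraries, *Ctsb* and *Cd63*. *Ctss*, the cathepsin that cleaves the invariant chain in antigen-presenting cells, had 77.6 TPM to 109 TPM in WT and 84.7 TPM to 107 TPM in *Dek* cKO libraries.

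The interferon gamma axis, which induces *Ciita*, held 10 genes, of which 9 were tested. By limma 0 were called, against 0.148% of all genes, while *Irf1* and *Irf2* had an unadjusted p under 0.05, against 6.64% of all genes. *Irf1*, named after its values were seen, had 10.8 TPM to 14 TPM in WT and 12.1 TPM to 16.9 TPM in *Dek* cKO libraries, with a log2 fold change of 0.24 (limma, Benjamini-Hochberg adjusted p = 0.673). In females it had 11.6, 14 and 11.8 TPM in WT and 12.5, 13 and 12.1 TPM in *Dek* cKO mice, with a log2 fold change of 0.01. In males it had 10.8, 12.4 and 11.7 TPM in WT and 14.9, 16.3 and 16.9 TPM in *Dek* cKO mice, without overlap by label (as for 9.75% of all genes) but with overlap once placed by Y-linked genes, with a log2 fold change of 0.46 (limma, Benjamini-Hochberg adjusted p = 0.397), and 0.51 without both libraries of conflicting sex. The interaction was -0.45, with a 95% interval from -0.75 to -0.15 (limma, Benjamini-Hochberg adjusted p = 0.966), and was called in 0 of 21 alternatives. *Irf2* had a log2 fold change of 0.18 (limma, Benjamini-Hochberg adjusted p = 0.585), and its genotypes overlapped as well. The cytokine itself, *Ifng*, is listed at 0 in 10 of 12 libraries, with 0.153 TPM in male WT replicate 2 and 0.0688 TPM in male cKO replicate 3. *Jak1* was the most abundant gene of the list, followed by *Ifngr2*. Of the 8 costimulation genes, 6 were tested, 0 were called by limma, against 0.148% of all genes, and 0 had an unadjusted p under 0.05, against 6.64%. *Cd86*, a ligand that T cells need beside the class II signal, had 1.88 TPM to 3.8 TPM in WT and 2.15 TPM to 3.05 TPM in *Dek* cKO libraries.

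In MHC class I presentation 0 of 13 genes tested were called by limma, against 0.148% of all genes, and 4 had an unadjusted p under 0.05, against 6.64%. The class I heavy chain gene *H2-K1* had 20.8 TPM to 27.6 TPM in WT and 28.4 TPM to 40.3 TPM in *Dek* cKO libraries, without overlap (as for 0.676% of all genes), with a log2 fold change of 0.33 (limma, Benjamini-Hochberg adjusted p = 0.381).

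The libraries highest in *Cd74* and *H2-Aa* also differed in genes of neighbouring tissues. All 8 choroid plexus genes were listed and tested, none was at 0 in a library, and *Ttr* was the most abundant. Their summed level was 1677, 109 and 78.2 TPM in female WT, 1998, 593 and 3075 TPM in male WT, 49.4, 3475 and 1138 TPM in female *Dek* cKO, and 4499, 71.3 and 1389 TPM in male *Dek* cKO mice. Male cKO replicate 1 and female cKO replicate 2, the highest libraries for *Cd74*, were highest here too, and male cKO replicate 2, the third for *Cd74*, was among the lowest. Male WT replicate 3, at 3075 TPM here, had 5.45 TPM of *Cd74*. All 8 meningeal genes were likewise listed, with *Dcn* the most abundant and none at 0. They summed to 107, 188 and 193 TPM in female WT, 160, 150 and 146 TPM in male WT, 57, 173 and 106 TPM in female *Dek* cKO, and 194, 289 and 76.1 TPM in male *Dek* cKO mice. Male cKO replicate 2 had the highest sum, female cKO replicate 1 and male cKO replicate 3 the lowest. Female WT replicates 2 and 3, at 188 and 193 TPM here, had 5.67 and 5.34 TPM of *Cd74*. Their part in the class II values was not tested.

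**Figure D3:**
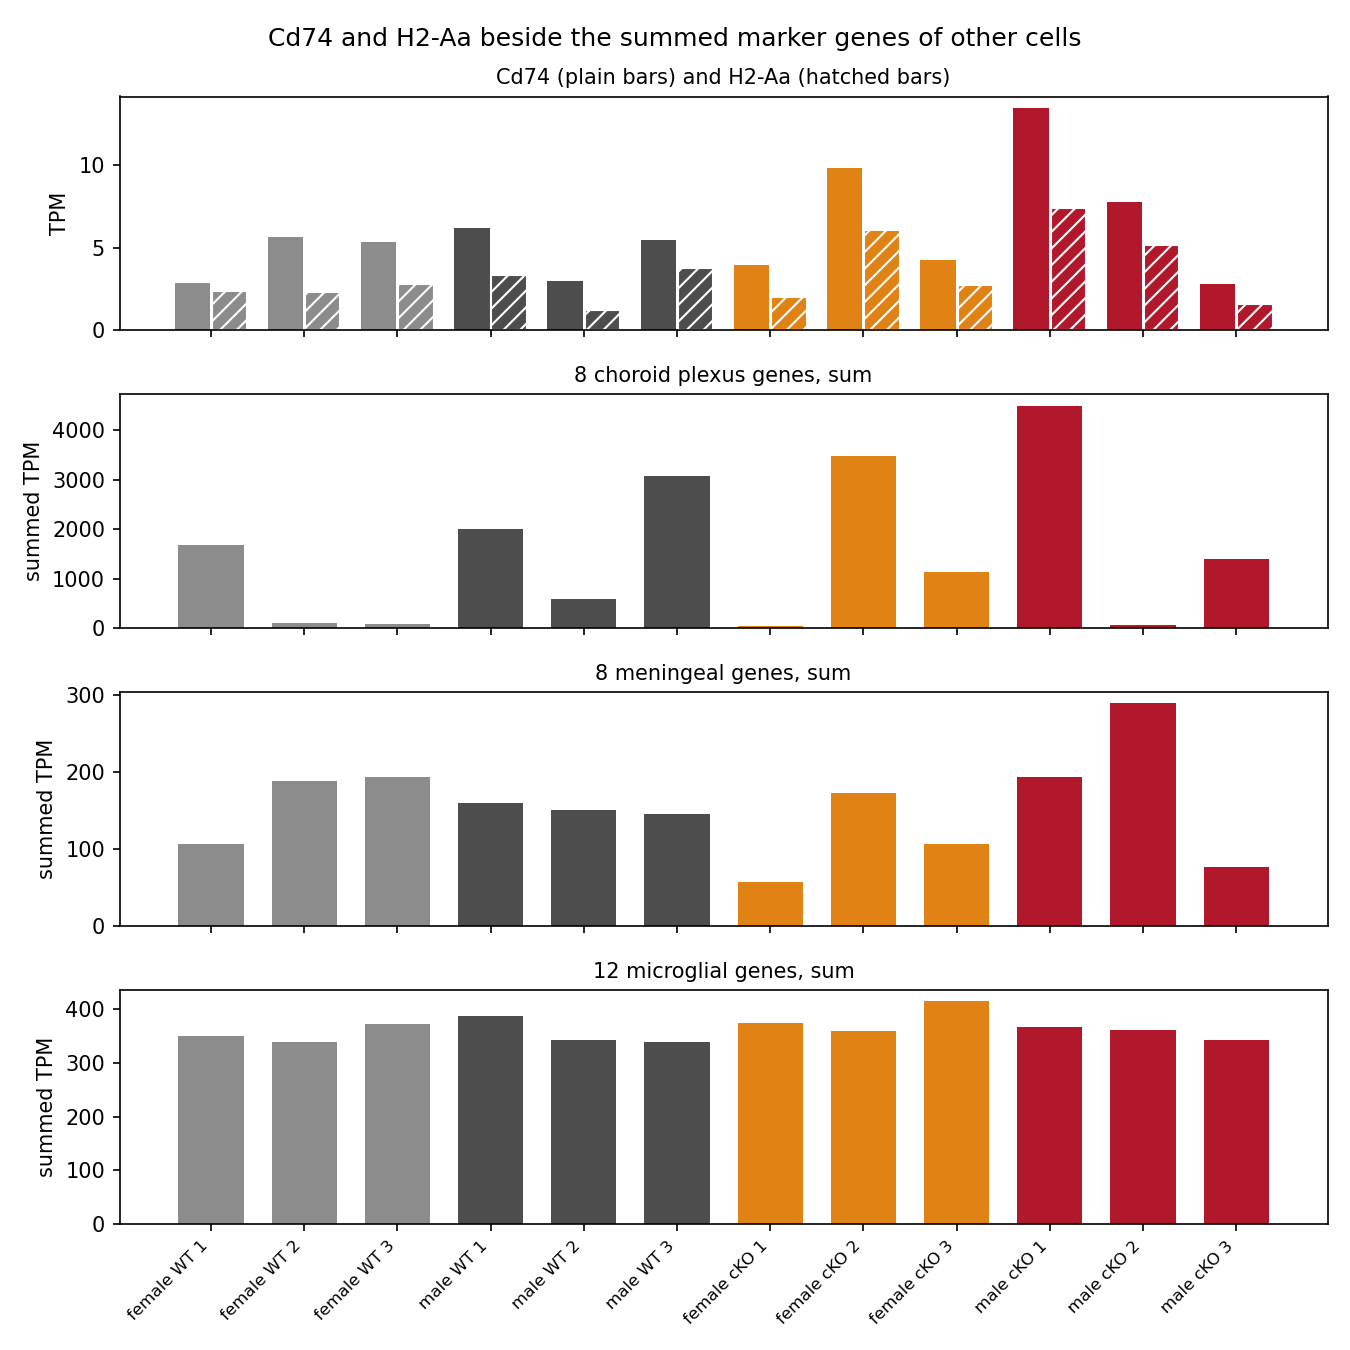
TPM of *Cd74* and *H2-Aa* (upper panel) and summed TPM of choroid plexus, meningeal and microglial marker genes (lower panels) in each of the 12 libraries, coloured by group. Male cKO 1 and female cKO 2, highest in *Cd74*, were also highest in choroid plexus genes. Male cKO 2, the third for *Cd74*, had 71.3 TPM of choroid plexus genes and the highest meningeal sum. Female WT 2 and 3 had meningeal sums of 188 and 193 TPM, near the 194 TPM of male cKO 1, but 5.67 and 5.34 TPM of *Cd74*. Male WT 3 had 3075 TPM of choroid plexus genes but 5.45 TPM of *Cd74*. The microglial sum lay between 340 and 415 TPM.

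Macrophages of the brain's borders were followed by 8 genes, all listed, with *Pf4* the most abundant and none at 0. They summed to 3.45, 8.78 and 8.15 TPM in female WT, 7.19, 4.55 and 4.7 TPM in male WT, 6.15, 7.75 and 4.07 TPM in female *Dek* cKO, and 7.34, 12.2 and 5.93 TPM in male *Dek* cKO mice. The highest value fell in male cKO replicate 2, and the genotypes overlapped. Dendritic cell genes (8 of 9 listed, *Xcr1* not analysed here) summed to 13 TPM to 18 TPM with *Flt3* the most abundant, and *Itgax* stayed at 0.126 TPM to 0.339 TPM. The part of these cells in the class II values was not tested.

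The microglial sum was not highest where class II genes were. The 12 genes, all listed, summed to 340 TPM to 387 TPM in WT and 343 TPM to 415 TPM in *Dek* cKO libraries. The highest sum was in female cKO replicate 3, where *Cd74* had 4.28 TPM, and male cKO replicate 1, with 13.5 TPM of *Cd74*, had 368 TPM. The 8 B cell genes summed to 0.75 TPM to 1.93 TPM, *Cd79a* was the most abundant, and *Blk* is listed at 0 in 9 of 12 libraries and reached 0.0827 TPM at most. The 10 T cell genes summed to 5.04 TPM to 9.19 TPM, with *Lck* the most abundant, while the receptor subunit gene *Cd3e* reached 0.173 TPM at most. The 9 monocyte and neutrophil genes summed to 1.83 TPM to 7.22 TPM with *Mpo* the most abundant, and *Ly6g* is listed at 0 in 11 of 12 libraries.

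The 6 blood genes summed to 688 TPM to 1547 TPM, with *Hbb-bs* the most abundant, and the 7 endothelial genes to 146 TPM to 184 TPM, with *Slco1a4* the most abundant. The 6 astrocyte genes summed to 1104 TPM to 2212 TPM, with *Slc1a2* the most abundant, and the 6 oligodendrocyte genes to 2348 TPM to 4866 TPM, with *Mbp* the most abundant. By limma 0 genes of any of these cell type lists, or of the list of hippocampal neurons, were called between the genotypes with both sexes together, against 0.148% of all genes. At an unadjusted p under 0.05, reached by 6.64% of all genes, there were 2 of 12 microglial genes tested, 2 of 7 of monocytes and neutrophils and 1 of 6 of astrocytes, and 0 in each of the other lists.

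Genes whose pattern was most like that of the class II molecules were sought over the 12 libraries among genes averaging 1 TPM or more, by Pearson r to the mean log2 value of *H2-Aa*, *H2-Ab1*, *H2-Eb1* and *Cd74*. Among the highest were *Cd164* (0.93), *Angptl2* (0.93), *Smndc1* (0.93), *Gpx8* (0.90), *H2-Q6* (0.88), *Paqr5* (0.87) and *Serpinb1b* (0.86). After the mean of each genotype was removed, r lay between 0.84 (*Serpinb1b*) and 0.93 (*Gpx8*), and without the 2 libraries farthest from the median it was 0.68 for *H2-Q6*, *Paqr5* and *Serpinb1b*. These values describe 12 libraries and were picked from the highest of all genes searched. The mean of the class II genes includes *H2-Eb1*, listed at 0 in most libraries, with r of -0.12 to *H2-Aa* and -0.31 to *Cd74*. It thus mixes genes that did not all vary together, and the weight of *H2-Eb1* in the ranking was not tested. *H2-Q6*, a class I gene, had the log2 fold change farthest from 0 among these 7, at 0.63 (limma, Benjamini-Hochberg adjusted p = 0.674).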

How the data were processed

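Hippocampal RNA of 12 mice was measured, and the authors deposited 1 table of TPM with a column for each library. The submitters' processing notes name kallisto and mm10, the paper's methods name STAR and Salmon, and no source used here says which wrote the table. TPM as deposited is corrected for transcript length and scaled per library, so the reads behind a gene's value are not kept and tests on counts were not made. Columns summed to 825750 to 845553 TPM, and 25245 of 26409 gene IDs matched GENCODE M21. All 12 columns were matched to samples by name.

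Values were tested as log2(TPM + 0.1) for 18197 genes with limma 3.58.1 in R 4.3.3 (trended prior variance, two-sided, Benjamini-Hochberg adjustment over all genes tested), after the steps were tested on simulated data. Libraries are separate samples by their labels, so p-values measure the spread between these samples. Both sexes together used 2 groups of 6 libraries, and the other comparisons used 4 groups of 3. Whether same-numbered libraries of a sex deviate together was checked: correlations lay between -0.04 and 0.04, so the numbers do not pair the samples.

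The members and the gene lists were chosen with earlier results of these data known. Named genes are the 6 members in every library, for each list the most abundant genes and those called or without overlap between genotypes with both sexes together, markers listed at 0, the 8 genes most like the class II chains and *Cd74*, *Dek* and 2 Y-linked genes. Outside this rule, *Ctss*, *Irf1*, *H2-DMb2*, *Ifng*, *Itgax*, *Gfap* and *P2ry12* were named after their values were seen. Results for some genes that the rule names are not reported here. Alternatives were 0.5 or 1 TPM added, the filter dropped or raised to 1 TPM, scaling by median ratio or quantiles, no trend, a replicate block, sex as a covariate, CMV-named libraries only, a fit on the sex alone, and libraries left out. Tables and figures used Python 3.11.15, pandas 2.3.3, numpy 2.4.6, scipy 1.17.1 and matplotlib 3.10.9.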

Additional observations from a re-analysis of the deposited data

Results flagged for a closer look

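In groups of 6 libraries, a value was picked out where its gap to the nearest other library took up an unusually large share of the group's range. Of 108 such groups examined, 13 had a value of this kind, and chance gives about 1 in 20. Among the class II genes there was 1, *H2-Eb1* at 0.502 TPM in female WT replicate 1, the only WT library not listed at 0. Male cKO replicate 3 was far from the other *Dek* cKO libraries in *Nfyb* (72.5 TPM), *Cd63* (181 TPM), *Jak1* (101 TPM), *Gfap* (1267 TPM), the summed endothelial genes (146 TPM) and the summed astrocyte genes (2212 TPM). Male cKO replicate 2 also stood apart from the other *Dek* cKO libraries in *Dcn* (131 TPM). Single WT libraries stood apart in *Ctsb* (139 TPM in female replicate 1), *Cd86* (3.8 TPM in male replicate 1), *Cd79a* (0.67 TPM in female replicate 2), *Mbp* (1363 TPM in male replicate 2) and the summed oligodendrocyte genes (2348 TPM in male replicate 2).

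For *Rfx5*, each *Dek* cKO library labelled female lay above, and each labelled male below, the WT libraries of that label. By label, 12% of all genes were separated between the genotypes in females and 9.75% in males. With female cKO replicate 3 and male cKO replicate 1, whose Y-linked genes go against their labels, placed by those genes, the genotypes overlapped in both sexes. The female effect minus the male effect was 0.58 on the log2 scale (limma, Benjamini-Hochberg adjusted p = 0.966), which did not pass the test.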

How the results depend on the processing

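With both sexes together, each class II gene kept a positive log2 fold change in all of its alternatives. These were 23 for *H2-Aa*, *H2-Ab1*, *Cd74* and *H2-DMa*, and 22 for *H2-Eb1* and *Ciita*, which dropped out under the filter of 1 TPM. *H2-Eb1* passed the filter of 0.1 TPM only through the *Dek* cKO group, so its sign is no support for a shared direction. By limma 0 of the 6 genes were called under any alternative in any comparison. At an unadjusted p under 0.05 there were 2 values of 136 with both sexes together, 1 of 130 in females, 7 of 130 in males, 2 of 124 in the interaction and 0 of 118 between WT sexes. In the main fits the shares of all genes were, in the same order, 6.64%, 5.79%, 5.45%, 4.23% and 3.63%. The alternatives reuse the same libraries, so these values are not separate observations. The median log2 fold change of the 6 genes, 0.40, lay between 0.22 and 0.55 as single libraries were left out, and was 0.28 with 1 TPM added.

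Within a sex, signs turned where single libraries were left out. In females the log2 fold changes then ranged from -0.06 to 0.70 (*H2-Aa*), -0.95 to 0.38 (*H2-Ab1*), -0.10 to 0.55 (*Cd74*), -0.27 to 0.07 (*Ciita*) and -0.02 to 0.48 (*H2-DMa*). In males that of *Cd74* ranged from -0.00 to 1.12. Without both libraries of conflicting sex *Ciita* had 0.05 in females and *Cd74* -0.00 in males. The cause was not tested.

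With a replicate block 0 of the 6 genes were called by limma in the comparison of both sexes and in each sex, and the median was 0.40. Over all genes tested, the number called with both sexes together, 27, was 3 with a replicate block, 8 in CMV-named libraries only, 16 without both libraries of conflicting sex, 17 without the filter, and between 13 and 27 as single libraries were left out. In females it was 3, and 7 without trend, 1 with a replicate block or a fit on that sex alone, 9 without both libraries of conflicting sex and 1 to 5 as single libraries were left out. In males it was 3, and 6 without the filter or without trend, 1 with a replicate block, 7 without both libraries of conflicting sex and 2 to 7 as single libraries were left out. For the interaction it was 0 by limma, and 2 without the filter, without trend or without both libraries of conflicting sex, and between WT sexes 0 by limma, and 3, 3 and 4. As single libraries were left out both lay between 0 and 1. At an unadjusted p under 0.05 there were 770 genes in the interaction and 660 between WT sexes.

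For *H2-DMb1*, *H2-DMb2*, *Irf1*, *Irf2*, *H2-K1*, *Rfx5* and the interaction of *H2-Ab1* the alternatives were chosen after seeing the data, and 0 gave a call. A sign turned for *Irf1* in females alone, where the log2 fold change was -0.01 with median ratio scaling and ranged from -0.04 to 0.10 as single libraries were left out. TPM does not keep the reads behind a gene's value, so how many stand behind *Ciita* and *H2-Eb1* was not tested.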
